A study of Homo sapiens with 8 samples.

Results

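The 10 genes described here encode transcription factors that set myeloid identity, SPI1, IRF8, CEBPA, CEBPB, CEBPD, CEBPE, GFI1, RUNX1, MYB and GATA2. They were chosen by symbol, with earlier results of these data known, and are 10 of the 78932 gene IDs in the deposited count table. All 10 passed the filter on low counts, which kept 24289 genes for testing. The data are sequenced RNA from polysome gradients of 2 human acute myeloid leukaemia lines, labelled Molm13 and U937, in which ribosome-bound RNA sediments by the number of ribosomes it carries.

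Cells labelled OE (OGFOD1 overexpression from a lentiviral vector) and cells labelled control were treated with cycloheximide, which stalls ribosomes on RNA, and lysed. The fractions of each gradient made a heavy pool, with 3 or more ribosomes per RNA, and a light pool of free ribonucleoproteins, monosomes and disomes. Every line label had 1 library each of OE heavy, control heavy, OE light and control light, giving 8 libraries from 4 gradients and n = 2 per group, with the line as the replicate. The library names of the controls contain Scr. The vector given to control cells and the clonality of the lines are not stated in the labels used here. No label speaks of separate cultures of a line, so p-values measure only the spread between these libraries. The main fit counts the heavy and light pools of a gradient as independent. OGFOD1 is a prolyl hydroxylase that acts on a ribosomal protein, and the question is how its overexpression alters the RNA on polysomes.

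Blood cell fate is set by a small network of transcription factors that activate and repress one another. SPI1, an ETS factor, works with the C/EBP family and IRF8 to open genes of the monocyte and granulocyte lineages, while RUNX1, MYB and GATA2 act earlier, in stem and progenitor cells. GFI1, a repressor, favours granulocytes, and several of these genes are mutated, fused or needed for growth in acute myeloid leukaemia.

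OGFOD1 itself went against the genotype labels. It stood at 25.3 and 12.4 CPM in the Molm13 and U937 OE heavy libraries, against 44.4 and 60.2 CPM in the control heavy libraries. The light libraries had 16.7 and 10.1 CPM when labelled OE, against 33.0 and 49.8 CPM when labelled control. CPM here is a gene's count as a share of the library total, scaled by edgeR's TMM method. All 4 libraries labelled OE lay below all 4 control libraries, with a log2 fold change of -1.60 (SE 0.30, edgeR adjusted p = 0.0178), so every genotype comparison below is between libraries labelled OE and libraries labelled control. Whether the genotype labels are exchanged or reads from the vector were not counted was not tested. If they are exchanged, the direction of every genotype difference below turns round.

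Total counts per library ran between 25741930 and 89373133. The Molm13 control light library stood apart from the other light pools. Mitochondrial genes took 0.36% to 0.941% of counts in the heavy pools. In the light pools they took 19.9% in Molm13 OE, 20.5% in U937 OE and 23.3% in U937 control, but 2.49% in Molm13 control. The calls of the 10 genes and the counts or medians of the related lists that changed without the Molm13 control light library are given both ways. Leukocyte and myeloid markers were present in every library, with a summed level of 1025 to 2078 CPM in those labelled OE and 771 to 1426 CPM in controls, although the monocyte receptor gene CD14 was at or below 0.38 CPM. T cell markers summed to 101 to 240 CPM in libraries labelled OE and 38.2 to 117 CPM in controls, carried by TRAC and CD3D, whereas the defining T cell gene CD3E was at or below 0.0876 CPM. In the B cell list MS4A1 and CR2 were at 0, and the summed level was at or below 8.37 CPM, and erythroid and megakaryocyte markers summed to at most 0.735 CPM. Epithelial and stromal markers summed to 2.90 to 8.11 CPM in libraries labelled OE and 8.85 to 23.7 CPM in controls. The part of these differences in the genotype results was not tested.

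The start regions below are shown because the pools separate RNA by how many ribosomes have begun translating it. They come from the GENCODE 29 transcript (GRCh38) of each gene, read in the sense of the RNA, with the annotated start codon in capitals after 12 bases of leader.
SPI1: gagcccggctggATGtta
IRF8: gacggcggcaggATGtgt
CEBPA: tctaactcccccATGgag
MYB: gcccgccgcgccATGgcc
GATA2: ccgccgccggccATGgag
CEBPA also has a short reading frame in its leader, known to control which protein form is made. It begins at base 126 of the transcript and is followed by the main start codon at base 151. Its start and stop codons are in capitals here.
CEBPA upstream frame: ATGccgggagaactcTAA
GFI1 has a frame of 30 bases in its leader, beginning at base 25, with the main start codon at base 320.
GFI1 upstream frame: ATGggaactacagctctccagggagttTGA
No upstream ATG was found in the annotated leaders of IRF8, MYB, CEBPB or CEBPE. The leaders of SPI1, CEBPA, GFI1 and GATA2 had 1 each, and those of CEBPD and RUNX1 had 2 each. Leader length ran between 150 bases in CEBPA and 966 bases in CEBPD. With 10 genes, these features are given as a description beside the pool values and no relation to them was tested.

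Per kilobase of exon, CEBPA, the factor that drives granulocyte and monocyte commitment, had the highest mean level of the 10 genes, at 133 CPM per kb over the 8 libraries (range 69.0 to 214). SPI1 followed at 61.6 CPM per kb (range 21.4 to 97.9), and CEBPD, a C/EBP member induced by inflammatory signals, at 46.0 CPM per kb (range 19.1 to 82.0). These ranges overlap. MYB (34.4 CPM per kb), IRF8 (27.9), GFI1 (20.0), CEBPB (11.6) and GATA2 (10.4) came next, and of these neighbours only GFI1 (lowest library 16.6) and CEBPB (highest library 15.1) had ranges that did not overlap. RUNX1 had 3.44 CPM per kb of its 15574 bases of merged exons, and 8.60 CPM per kb of its 6222-base principal transcript. CEBPE, a factor of late granulocyte maturation, was lowest at 0.848 CPM per kb. It rested on 29 to 273 reads per library, against at least 597 reads in every library for each of the other 9 genes. In the U937 control light library its 29 reads gave 0.504 CPM of all counts, with exact 95% limits of 0.337 to 0.723 that cover counting error only.

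**Figure D1:**
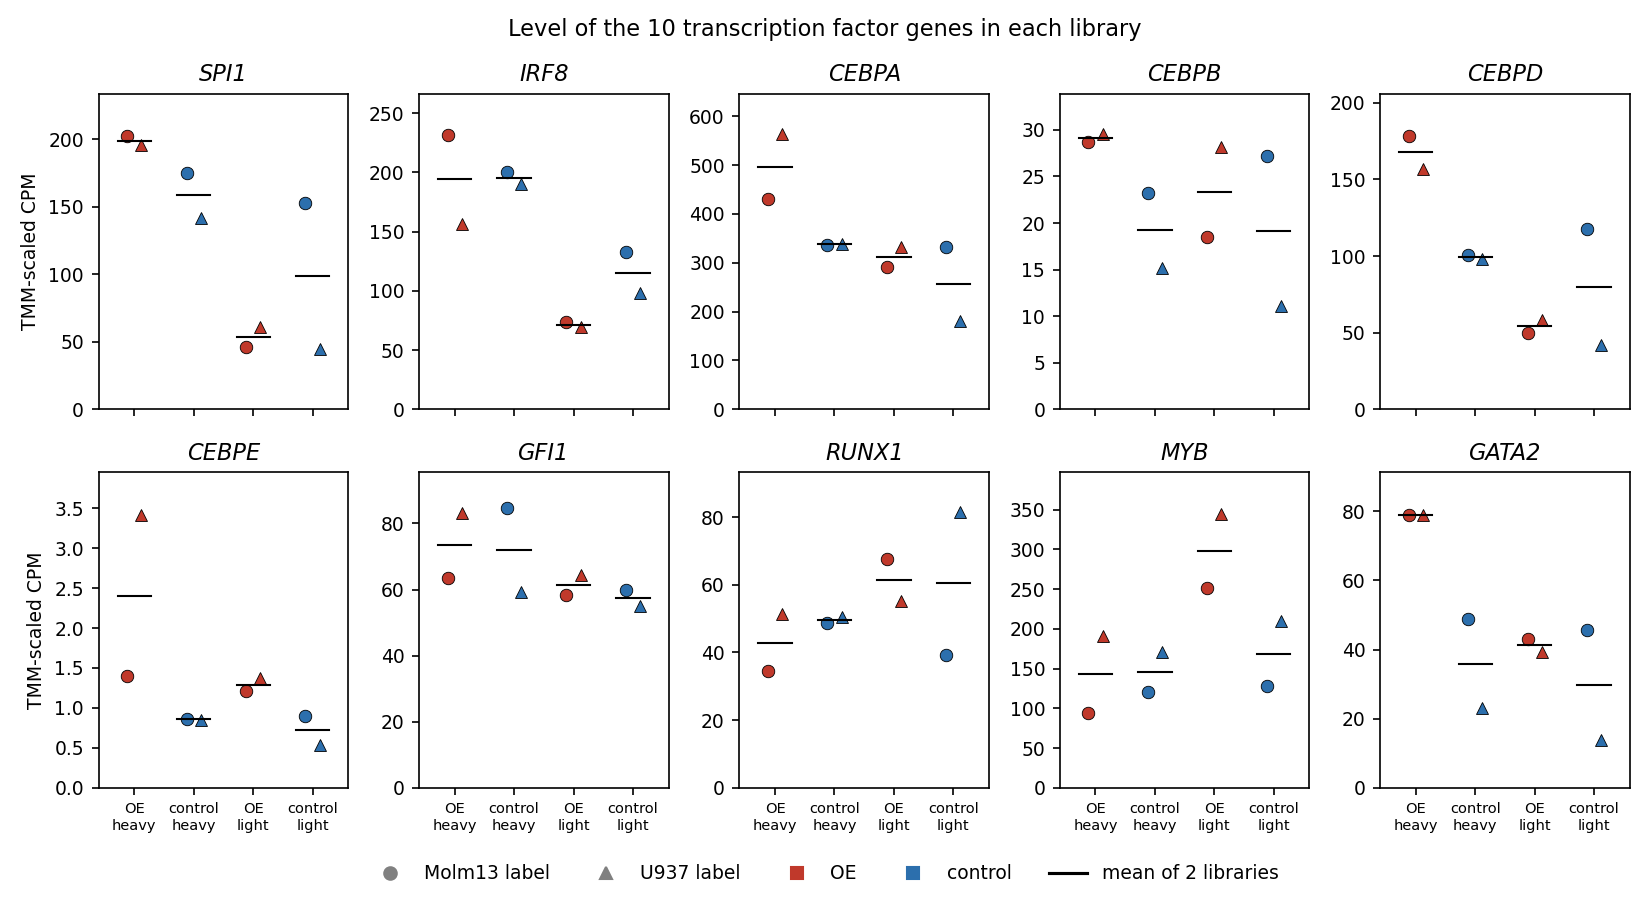
Level of each of the 10 genes in each library (vertical axes, TMM-scaled CPM, each starting at 0), with OE and control libraries of the heavy and light pools along the horizontal axis, circles for Molm13, triangles for U937 and bars for the mean of 2 libraries. SPI1 reached 202.5 and 195.4 CPM in the OE heavy libraries, against 46.0 and 61.2 CPM in OE light, and the Molm13 control light library, at 152.4 CPM, lies far above the other light libraries.

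The heavy pool was compared with the light pool to see how the RNA of these genes was spread over ribosome classes. SPI1, IRF8 and CEBPD were higher in the heavy pool, and no member was called lower. That is 3 of 10 genes, where 28.6% of all genes tested passed the same threshold (edgeR quasi-likelihood test, adjusted p under 0.05), 15.8% higher and 12.8% lower. The share is close to the background and is not a result about the group. The median log2 fold change of the 10 genes was 0.55, beside -0.037 over all genes tested. Of the 10, 8 were positive, where 48.4% of all genes tested were. Neither value was tested as a result about the group. Since the values are relative to all RNA in each pool, a smaller share of RNA and a smaller amount cannot be told apart, and nor can fewer cells of a type and less RNA per cell.

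SPI1 (ENSG00000066336, chromosome 11, 47354860 to 47378576, minus strand) stood at 202.5 CPM in Molm13 OE heavy and 195.4 CPM in U937 OE heavy, against 46.0 and 61.2 CPM in the matching OE light libraries. Among controls it had 175.0 CPM in Molm13 heavy and 142.0 CPM in U937 heavy, against 152.4 and 44.4 CPM in the light libraries. In 3 of the 4 gradients the heavy pool was far above the light pool, with differences of 2.14, 1.67 and 1.68 on the log2 scale, while in the Molm13 control gradient the difference was 0.20. The fitted log2 fold change was 1.32 (SE 0.34, edgeR adjusted p = 0.0119) and became 1.89 without Molm13 control light. By group, the means stood in the order OE heavy (199.0 ± 5.04 CPM), control heavy (158.5 ± 23.3), control light (98.4 ± 76.4) and OE light (53.6 ± 10.8; SD, n = 2 each). Control light differed from neither neighbour by more than its own spread.

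IRF8, a factor of monocyte and dendritic cell development (ENSG00000140968, chromosome 16, 85898803 to 85922609, plus strand), was higher in the heavy pool of all 4 gradients. The heavy libraries held 231.7 CPM in Molm13 OE, 156.7 in U937 OE, 199.97 in Molm13 control and 189.8 in U937 control. The light libraries held 73.3 CPM in Molm13 OE, 69.3 in U937 OE, 132.9 in Molm13 control and 97.8 in U937 control. Every heavy library lay above every light library. The share of all genes whose pools separate in this way was not counted, here or for CEBPA below. The fitted log2 fold change was 1.10 (SE 0.26, edgeR adjusted p = 0.00773), and 1.17 without Molm13 control light.

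CEBPD (ENSG00000221869, chromosome 8, 47736909 to 47739086, minus strand, 1 exon) had 178.7 and 156.8 CPM in the Molm13 and U937 OE heavy libraries, against 49.8 and 58.3 CPM in OE light. Control heavy libraries had 100.7 and 97.9 CPM, against 117.5 and 41.7 CPM in control light. The heavy pool was higher in 3 of 4 gradients, and in the Molm13 control gradient the difference was -0.22 on the log2 scale. The fitted log2 fold change was 1.01 (SE 0.30, edgeR adjusted p = 0.0258), and 1.47 without Molm13 control light.

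These 3 calls depended on single libraries. The share of all genes called in the 5 fits named next was between 14.3% and 20.6%. Without Molm13 OE light none passed, with edgeR adjusted p of 0.0533 for SPI1, 0.0533 for IRF8 and 0.11 for CEBPD. Without Molm13 OE heavy the call remained for SPI1 alone and without U937 OE heavy for IRF8 alone, and CEBPD also missed the threshold without either U937 control library (edgeR adjusted p = 0.0516 for light and 0.097 for heavy). Without Molm13 control light, 5 of 10 members passed, where 35.8% of all genes did, and GATA2 at 1.06 (adjusted p = 0.00112) and CEBPA at 0.85 (adjusted p = 0.0141) joined them.

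CEBPA (ENSG00000245848, chromosome 19, 33299934 to 33302564, minus strand, 1 exon) also had every heavy library above every light one, by a narrow margin. Its heavy libraries had 430.0 CPM in Molm13 OE, 562.7 in U937 OE, 336.4 in Molm13 control and 339.3 in U937 control, and its light libraries 291.1, 331.8, 332.3 and 181.7 CPM in the same order. The log2 fold change of 0.54 (SE 0.31) did not pass (edgeR adjusted p = 0.204). Antisense loci overlap 25% and 18.3% of its exon bases in GENCODE 29, and whether the counting separated strands is not given in the sources used here, so its reads may include theirs. GATA2 (0.65), CEBPE (0.55), GFI1 (0.29) and CEBPB (0.17), a C/EBP member of macrophages and emergency granulopoiesis, were positive without passing, with edgeR adjusted p between 0.115 and 0.704. CEBPB-AS1 overlaps 11.8% of CEBPB exon bases.

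MYB and RUNX1 were the members with negative values. MYB (ENSG00000118513, chromosome 6, 135181315 to 135219173, plus strand), a proliferation factor of progenitors, had 94.2 and 191.6 CPM in the Molm13 and U937 OE heavy libraries, against 251.1 and 345.2 CPM in OE light. In controls it had 120.4 and 171.1 CPM in heavy libraries, against 127.7 and 209.6 CPM in light ones. The heavy library was the lower of the pair in 4 of 4 gradients, by as little as -0.085 (Molm13 control) and as much as -1.41 (Molm13 OE) on the log2 scale. The fitted log2 fold change of -0.66 (SE 0.26) missed the threshold with edgeR (adjusted p = 0.0795), and passed with DESeq2 (adjusted p = 0.0127) and with upper-quartile scaling in edgeR (adjusted p = 0.0307). RUNX1 (ENSG00000159216, chromosome 21, 34787801 to 36004667, minus strand) had 34.4 and 51.3 CPM in OE heavy, against 67.4 and 55.1 CPM in OE light, and 48.6 and 50.6 CPM in control heavy, against 39.1 and 81.6 CPM in control light. Its groups overlapped and the log2 fold change was -0.40 (SE 0.26, edgeR adjusted p = 0.278).

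**Figure D2:**
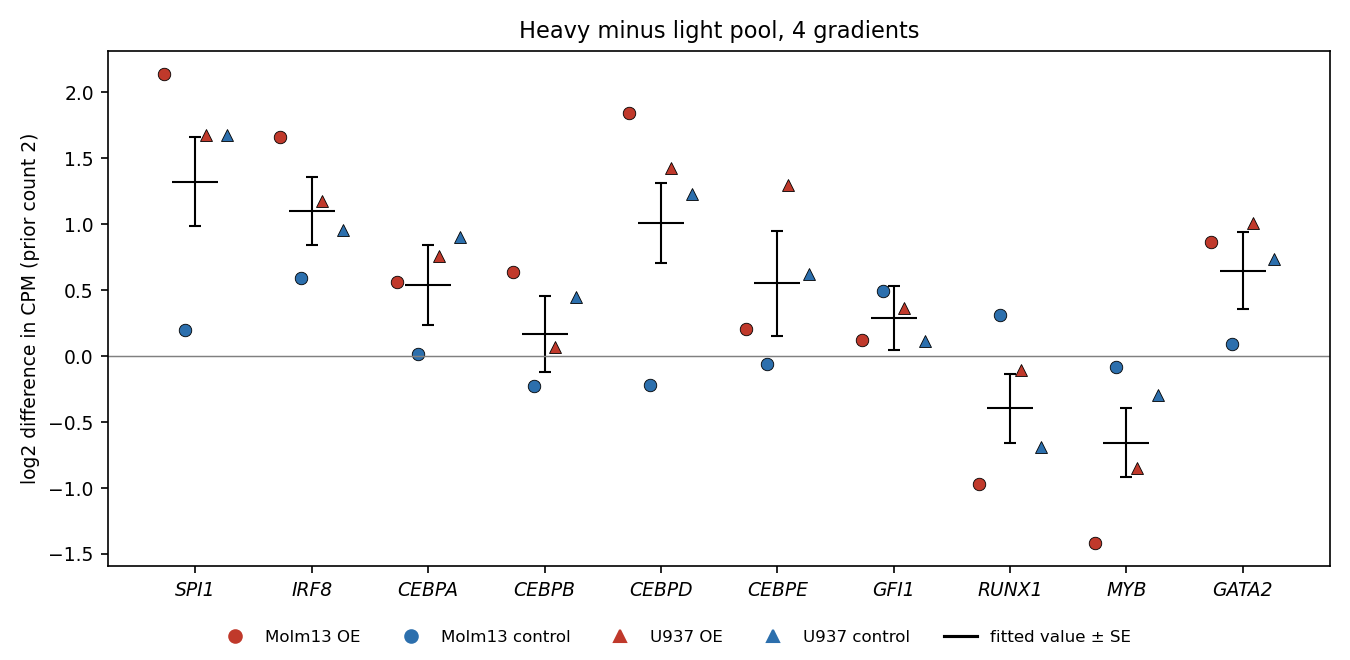
Heavy minus light log2 difference in CPM (vertical axis, prior count 2) of each gene in the 4 gradients, with black bars for the fitted value ± SE. IRF8 is positive in all 4 gradients, between 0.59 and 1.66, MYB is negative in all 4, and for SPI1 and CEBPD the Molm13 control gradient lies near 0 at 0.20 and -0.22.

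Genes related to the 10 were counted by list in the same comparison, where 15.8% of all genes tested were higher and 12.8% lower. With all 8 libraries, the share of other transcription factors called is close to that background and is not a result about that list. Of 44 other haematopoietic transcription factors tested, 8 were higher and 4 lower in the heavy pool. Their median was 0.12, and 0.093 without Molm13 control light. The vitamin D receptor gene VDR (1.05), the corepressor gene CBFA2T3 (0.97), the erythroid and megakaryocyte factor gene NFE2 (1.00) and the retinoic acid receptor gene RARA (1.08) were among those higher. Of 26 genes known as targets of SPI1 and C/EBP factors, 13 were higher and 0 lower. Their median was 0.90, and 1.135 without Molm13 control light. S100A9 (2.52, SE 0.30) and S100A8 (2.24, SE 0.36), the calprotectin subunits of neutrophils and monocytes, and the granule protease genes ELANE (2.39, SE 0.41) and CTSG (2.19, SE 0.36) led them, with edgeR adjusted p of 0.000575, 0.00134, 0.0018 and 0.00149. Of 15 partners and cofactors, 2 were higher and 0 lower, CBFA2T3 and the corepressor gene NCOR1 (0.87). The list's median was 0.14, and 0.23 without Molm13 control light. Of 9 genes associated with MYB and GATA2 in progenitors, the cyclin gene CCNB1 (0.94) was higher and the survival gene BCL2 (-0.79) lower.

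Of 5 loci tested in a list of overlapping or antisense loci, 1 was higher and 1 lower in the heavy pool. The lower was the noncoding locus GATA2-AS1, next to GATA2 with no exon overlap in GENCODE 29. It had 14.999 and 13.5 CPM in the Molm13 and U937 OE heavy libraries, against 36.8 and 43.3 CPM in OE light, and 8.90 and 8.57 CPM in control heavy, against 17.7 and 18.8 CPM in control light. The heavy libraries were lower in all 4 gradients, with a log2 fold change of -1.28 (SE 0.22, edgeR adjusted p = 0.00182), and -1.27 without Molm13 control light. GATA2 itself was at 0.65 (SE 0.29, edgeR adjusted p = 0.115). The difference between the 2 loci was not tested.

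OE was compared with control to see which of these RNAs differ with the genotype label. Over both pools none of the 10 genes passed the threshold with edgeR, where 4.37% of all genes tested did, 2.01% higher and 2.36% lower. With an unadjusted p under 0.05 there were 2 members, GATA2 and CEBPE, and 5384 of all 24289 genes tested. DESeq2 called GATA2, where it called 12.8% of the genes it tested, and limma voom called 0 members and 5.21% of all genes. With each gradient taken as a random block, voom called CEBPE and GATA2, where it called 13.3% of all genes. These shares of 1 and 2 in 10 are close to their backgrounds. The correlation within gradients in the blocked fit was -0.258. A negative value narrows the SE here, to 0.339 for CEBPE and 0.262 for GATA2, against 0.391 and 0.285 in voom without the block. The blocked calls are therefore not a stricter account of the shared gradients. The median of the 10 log2 fold changes was 0.26, beside -0.0525 over all genes tested.

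GATA2, a factor of stem and progenitor cells and mast cells (ENSG00000179348, chromosome 3, 128479427 to 128493185, minus strand), had 78.8 and 79.0 CPM in the Molm13 and U937 OE heavy libraries, against 48.7 and 23.1 CPM in control heavy. In the light pools it had 43.1 and 39.3 CPM when labelled OE, against 45.7 and 13.8 CPM when labelled control. The libraries labelled OE were higher in 3 of 4 matched pairs, and in the Molm13 light pair the difference was -0.081 on the log2 scale. The log2 fold change was 0.96 (SE 0.30, edgeR adjusted p = 0.0837) and became 1.29 without Molm13 control light (adjusted p = 0.00019). In order of their means, OE heavy (78.9 ± 0.117 CPM), OE light (41.2 ± 2.76), control heavy (35.9 ± 18.1) and control light (29.7 ± 22.5; SD, n = 2 each), the last 3 groups did not differ beyond their spread.

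CEBPE (ENSG00000092067, chromosome 14, 23117304 to 23119616, minus strand) had 1.39 and 3.41 CPM in OE heavy, against 0.865 and 0.851 CPM in control heavy, and 1.21 and 1.37 CPM in OE light, against 0.901 and 0.541 CPM in control light. All 4 libraries labelled OE lay above all 4 controls, but the exact 95% limits overlapped in Molm13. In the light pool they were 0.959 to 1.63 CPM of all counts for Molm13 OE and 0.760 to 1.18 for Molm13 control. The share of all genes that separate by genotype label in this way was not counted. The log2 fold change was 1.13 (SE 0.40, edgeR adjusted p = 0.118), and 1.45 without Molm13 control light (adjusted p = 0.0145). It was 0.72 without U937 OE heavy (adjusted p = 0.582), the library with the highest value.

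CEBPB (ENSG00000172216, chromosome 20, 50190734 to 50192689, plus strand, 1 exon) had 28.7 and 29.6 CPM in the Molm13 and U937 OE heavy libraries, against 23.3 and 15.2 CPM in control heavy. In the light pools it had 18.5 and 28.2 CPM when labelled OE, against 27.2 and 11.1 CPM when labelled control. Both U937 pairs were higher with OE, by 0.96 and 1.34 on the log2 scale, and the Molm13 pairs split, at 0.30 and -0.55. The fit gave 0.51 (SE 0.30, edgeR adjusted p = 0.339), and 0.83 without Molm13 control light (adjusted p = 0.0234).

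With that library left out, CEBPB, CEBPE and GATA2 were the members that passed, 3 of 10, where 13.4% of all genes did. With heavy and light counts added up per gradient, 0 members and 0 of all genes passed, with 4186 genes at an unadjusted p under 0.05. The remaining members had log2 fold changes between -0.35 (IRF8) and 0.42 (CEBPA), with edgeR adjusted p of 0.427 or more. IRF8 was lower in 3 of 4 pairs. SPI1, at -0.19, turned to 0.30 without Molm13 control light.

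**Figure D3:**
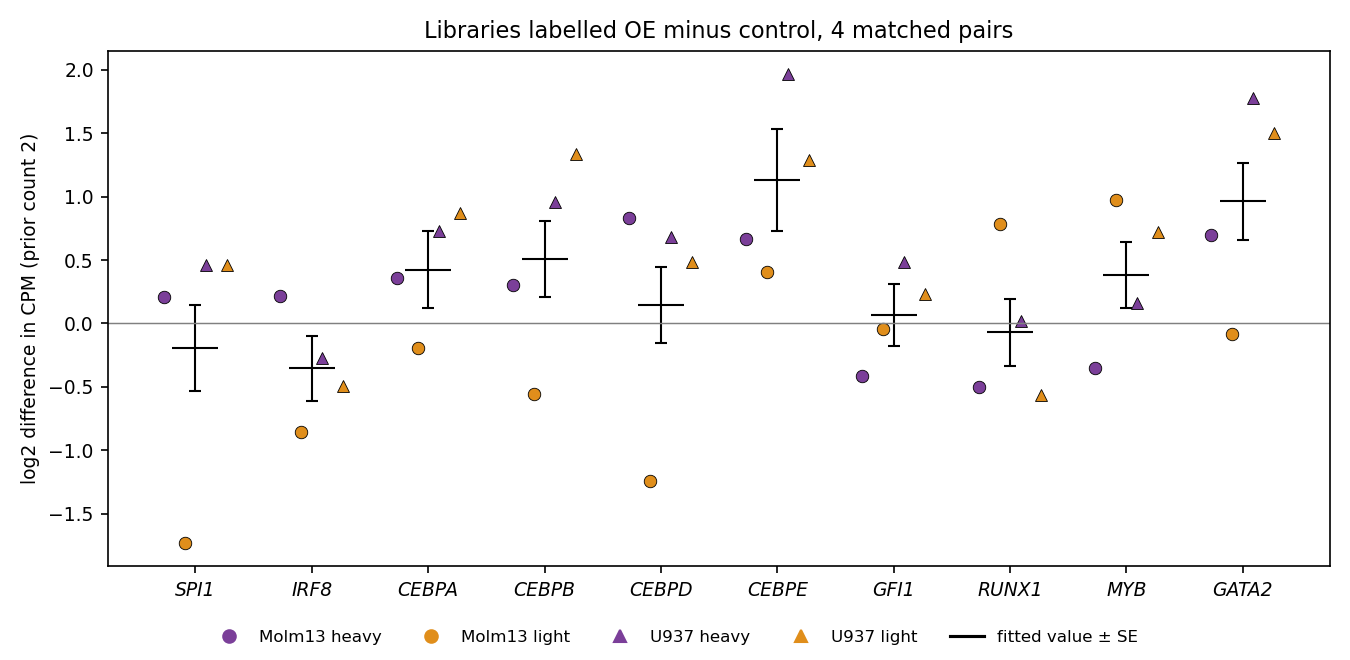
Log2 difference in CPM (vertical axis, prior count 2) between libraries labelled OE and control for each gene in the 4 matched pairs, with black bars for the fitted value ± SE. CEBPE is positive in all 4 pairs, GATA2 in 3 of 4, and the Molm13 light pair is the lowest for SPI1 (-1.73) and CEBPD (-1.24).

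Within each pool, the genotype comparison called 0 of the 10 genes in the heavy pool, where edgeR called 0.00412% of all genes (1 gene, 3670 at an unadjusted p under 0.05), and 0 in the light pool, where it called 0% (3604 at an unadjusted p under 0.05). By unadjusted p under 0.05 there were 2 members in the heavy pool and 1 in the light pool. DESeq2 and limma voom called 0 members in either pool, and of all genes DESeq2 called 1003 and voom 102 in the heavy pool, and 930 and 0 in the light pool. In the heavy pool the largest values were CEBPE at 1.47 (SE 0.57, edgeR adjusted p = 0.243) and GATA2 at 1.27 (SE 0.42, edgeR adjusted p = 0.185), with CEBPD at 0.75. In the light pool MYB was at 0.85 (SE 0.37, edgeR adjusted p = 0.313), SPI1 at -0.73 (SE 0.49) and IRF8 at -0.68 (SE 0.36), and without Molm13 control light SPI1 turned to 0.28. GATA2 passed in the heavy pool without either control light library, for instance at 1.21 (edgeR adjusted p = 0.0102) without that of Molm13. All genes called in those fits made up 6.99% without the Molm13 library and 7% without the U937 library.

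The difference between those genotype effects, heavy minus light, was tested as an interaction and called 0 members and 0% of all genes with edgeR (0 members and 1431 genes at an unadjusted p under 0.05; DESeq2 called 4 genes). CEBPD was at 1.20 (SE 0.61, edgeR adjusted p = 0.791), SPI1 at 1.08 (SE 0.67, adjusted p = 0.794) and MYB at -0.94 (SE 0.53, adjusted p = 0.791). SPI1 was at 0.044 and CEBPD at 0.38 without Molm13 control light. Leaving out U937 control light instead, both passed, at 1.86 and 1.89, where 5.1% of all genes did, most of them also higher (1177 of 1371).

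Among the surrounding lists, the genotype label went with a few calls in each direction, where 4.37% of all genes tested passed. This fit counts the pools of a gradient as independent, and with the counts of each gradient summed 0 of all genes passed. Of the 44 other haematopoietic transcription factors, 2 rose in libraries labelled OE, the bZIP repressor gene NFIL3 (1.22, SE 0.24, edgeR adjusted p = 0.0196) and RUNX3 (1.13, SE 0.28, edgeR adjusted p = 0.0421), a relative of RUNX1, and the list's median was 0.092. Without Molm13 control light 5 were higher and 1 lower, where 13.4% of all genes passed. Of the 26 SPI1 and C/EBP targets 1 rose and 3 fell, with a median of -0.16. The integrin gene ITGAM rose by 1.79 (SE 0.26), and S100A8 (-1.89, SE 0.36), S100A9 (-1.36, SE 0.29) and the granule peroxidase gene MPO (-1.01, SE 0.24) fell, with edgeR adjusted p between 0.0116 and 0.0357. Without Molm13 control light 9 targets rose and 3 fell, and the list's median became 0.205. KIT, the stem cell factor receptor gene, was the 1 call among 9 progenitor genes (1.82, SE 0.37, edgeR adjusted p = 0.0231), at 1.48 and 2.36 CPM in OE heavy, against 0.634 and 0.540 CPM in control heavy. None of the 15 partners and cofactors passed with edgeR. An unadjusted p under 0.05 was found for 3 of them, and for 5384 of all 24289 genes tested. Without Molm13 control light, 2 partners and 2 progenitor genes were called higher and 0 lower. TRIB2, which targets C/EBP alpha protein for degradation, had a value of 3.29 (SE 0.88, edgeR adjusted p = 0.0523) at no more than 1.33 CPM in any library. Of the 5 loci tested in the list of overlapping or antisense loci, 2 rose and 0 fell. They were GATA2-AS1 (0.92, SE 0.22, edgeR adjusted p = 0.0375) and MYB-AS1 (1.07, SE 0.28, edgeR adjusted p = 0.0468). MYB-AS1 overlaps 1.88% of MYB exon bases. MYB-AS1 had 7.18 and 8.53 CPM in OE heavy, against 6.62 and 3.85 CPM in control heavy.

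Molm13 was compared with U937 to see how the line label goes with these genes. None of the 10 passed, and edgeR called 0% of all genes tested (2862 at an unadjusted p under 0.05; DESeq2 called 305 genes and limma voom 1). MYB and GATA2 were the 2 members at an unadjusted p under 0.05, and DESeq2 and limma voom called 0 members. The line labels were not checked against genes known to differ between Molm13 and U937. If one were wrong, the values below, and the line label as replicate in the other comparisons, would not compare separate lines. The median of the 10 was 0.18, beside -0.000598 over all genes.

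MYB was the lower in Molm13 in 4 of 4 matched pairs, by -0.46 to -1.02 on the log2 scale, with means of 148.4 ± 70.0 CPM in Molm13 and 229.4 ± 78.8 CPM in U937 (SD, n = 4 each). Its log2 fold change of -0.68 (SE 0.26) did not pass with edgeR (adjusted p = 0.365). GATA2 had 54.1 ± 16.6 CPM in Molm13 and 38.8 ± 28.8 CPM in U937. Its difference was in the control libraries, at 1.08 in the heavy and 1.72 in the light pair, while the OE pairs were at -0.003 and 0.14. The fit gave 0.73 (SE 0.30, edgeR adjusted p = 0.383), and 0.39 without Molm13 control light. IRF8 was higher in Molm13 in 4 of 4 pairs, between 0.080 and 0.56, and its fitted value of 0.29 (SE 0.26) did not pass (edgeR adjusted p = 0.677).

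GFI1 (ENSG00000162676, chromosome 1, 92474762 to 92486876, minus strand) had the narrowest range of the 10 genes relative to its level, between 54.9 and 84.5 CPM. It had 63.5 and 83.2 CPM in the Molm13 and U937 OE heavy libraries, against 84.5 and 59.4 CPM in control heavy, and 58.3 and 64.5 CPM in OE light, against 59.9 and 54.9 CPM in control light. Its fitted log2 fold changes were 0.065 for the genotype label, 0.29 for the pool and 0.025 for the line label.

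**Figure D4:**
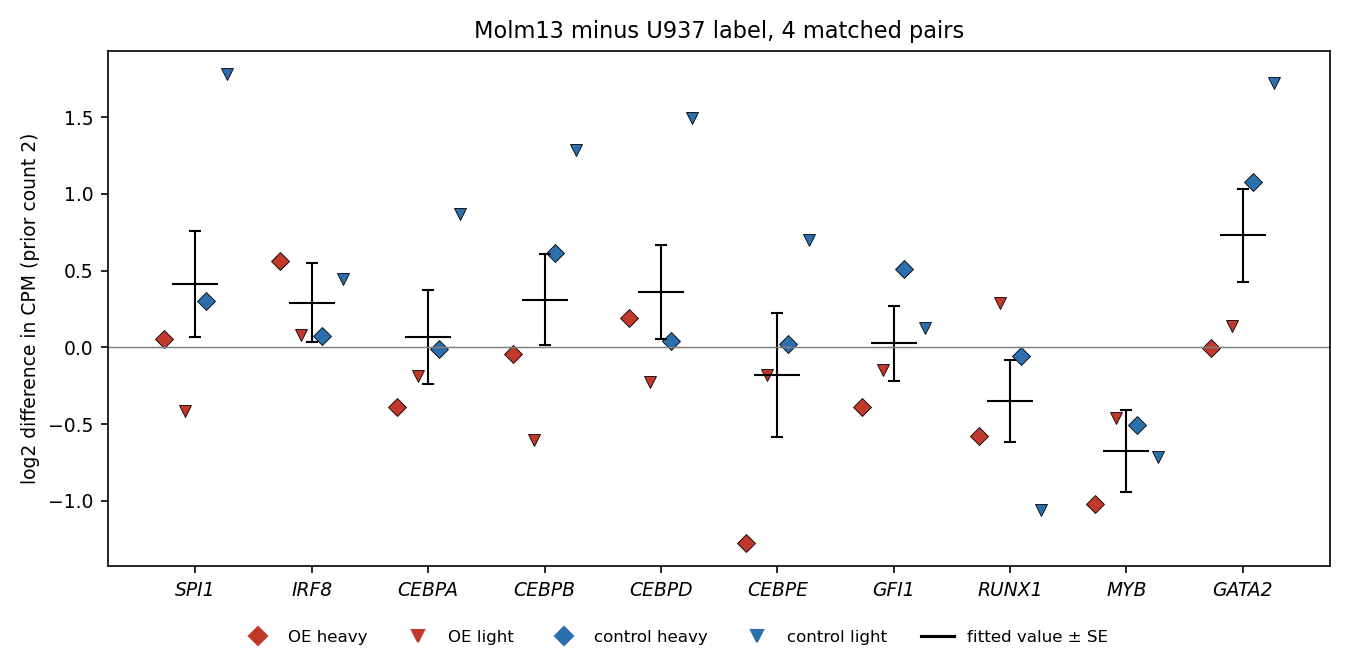
Molm13 minus U937 log2 difference in CPM (vertical axis, prior count 2) of each gene in the 4 matched pairs, with black bars for the fitted value ± SE. MYB is negative and IRF8 positive in all 4 pairs, and the control light pair gives the highest value for SPI1 (1.78), CEBPD (1.49), CEBPB (1.28) and GATA2 (1.72).

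A term letting the genotype effect differ between line labels, added after the data were seen, gave -1.33 for GATA2 (SE 0.52, edgeR adjusted p = 0.676), -1.28 for CEBPB (SE 0.50, edgeR adjusted p = 0.695) and -1.22 for SPI1 (SE 0.65, edgeR adjusted p = 1), Molm13 minus U937. None of the 10 passed, where 32 of all 24289 genes tested did (1312 at an unadjusted p under 0.05). The fit counts the pools of a gradient as independent. None of the genes in the related lists passed between line labels either. The largest values by unadjusted p were ID1 (1.49) and EGR2 (1.44) among transcription factors, S100A9 (1.57) and MPO (-1.18) among targets, and SPINK2 (-2.11) among progenitor genes, with edgeR adjusted p of 0.118 or more. Without Molm13 control light, 2 transcription factors and 2 targets were called higher in Molm13, and 2 targets and 1 progenitor gene lower, where 0.437% of all genes passed.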

How the data were processed

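Raw counts, whole numbers of reads for each gene ID in 8 libraries, were deposited by the authors in 1 table; the tools were cutadapt, STAR and featureCounts on GRCh38, per the submitters' processing notes. Not given in the sources used here were tool versions, the annotation release and the strandedness of counting. Per the labels' protocols, a Smart-seq kit was used. Gene IDs gave a symbol in 42179 cases (17214 among tested genes), and lengths, positions, overlaps and start regions came from GENCODE 29, which need not be the authors' release.

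Tests used the quasi-likelihood method of edgeR 4.0.16 in R 4.3.3 on all 8 libraries together, filtered with filterByExpr and scaled by TMM, with group and line label in the model (3 residual degrees of freedom, biological coefficient of variation 0.359). The Benjamini-Hochberg adjustment ran over all genes tested, and 0.05 was the threshold. SE derives from the F statistic. DESeq2 1.42.0, limma 3.58.1 (voom), other scalings, no filter, no line label, summed gradients and each library left out were alternatives. Pair differences are log2 CPM with a prior count of 2. The line labels were used to pair the libraries. Deviations from group means correlated at -0.0328 to 0.533 between groups. These correlations include pools of the same gradient, so they cannot show that the line alone pairs the libraries.

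Tested on simulated counts, the fit recovered 72% of 100 genes changed 4-fold for OE against control over both pools (among 23287 genes). The share was 70% for heavy against light (among 23305 genes) and 80% between lines (among 23247 genes). At 2-fold the shares were 15%, 13% and 18%. Each run also called 8 or 9 unchanged genes. The simulated libraries were drawn independently, with few genes changed and no line, pool or gradient effects on the rest. The data differ there, most between pools, where 28.6% of all genes passed. All 10 members are named; up to 4 genes per related list were named by smallest p. The members and lists were chosen with earlier results of these data known.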

Additional observations from a re-analysis of the deposited data

Results flagged for a closer look

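In 9 of 60 sets of 4 libraries (each gene split by genotype label, pool or line label), 1 library lay far from the other 3 by Dixon's criterion. Chance alone meets it in about 1 of 20 sets of replicates. The 4 libraries of a set differ in pool, genotype or line label, so they are not replicates and that rate need not hold. Several of the 9 sets share a library. The sets of 1 gene are not independent either, since they divide the same 8 values. The U937 control light library was the distant one for CEBPA among controls (181.7 CPM, the others 332.3 to 339.3), for CEBPE among controls (0.541 CPM, the others 0.851 to 0.901) and for RUNX1 among U937 libraries (81.6 CPM, the others 50.6 to 55.1). The Molm13 OE heavy library was the distant one for RUNX1 among heavy pools (34.4 CPM, the others 48.6 to 51.3) and for GATA2 among Molm13 libraries (78.8 CPM, the others 43.1 to 48.7). For SPI1 among light pools it was Molm13 control light (152.4 CPM, the others 44.4 to 61.2), which also had the low mitochondrial share. For CEBPB among libraries labelled OE it was Molm13 OE light (18.5 CPM, the others 28.2 to 29.6). CEBPE among libraries labelled OE was highest in U937 OE heavy (3.41 CPM, the others 1.21 to 1.39), and GFI1 among controls was highest in Molm13 control heavy (84.5 CPM, the others 54.9 to 59.9).

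GFI1 had opposite signs between line labels for OE minus control. The difference was -0.41 in the heavy and -0.041 in the light pool of Molm13, against 0.49 and 0.23 in U937, on the log2 scale. The rule that picked this pattern out is one of sign alone and no test was made on it. The line by genotype term of the report gave -0.59 for GFI1 (SE 0.53, edgeR adjusted p = 1).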

How the results depend on the processing

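For OE against control over both pools, the count of members called was 0 with all 8 libraries, 1 (GATA2) without a filter on low counts (5.15% of all genes) and with DESeq2, 2 (CEBPE and GATA2) with voom and the gradient as a random block, and 0 to 3 with a library left out (0.0679% to 13.4% of all genes). With a library left out it was 0 to 1 in the heavy pool (0% to 7% of all genes), 0 to 1 in the light pool (SPI1, lower, without U937 control light, where 7.17% of all genes passed, 1644 of 1926 lower), 0 to 5 for heavy against light (14.3% to 35.8%), 0 to 2 for the interaction (0% to 5.1%) and 0 to 0 for Molm13 against U937 (0% to 0.485%). Without the line label as a replicate block, 0 members were called for OE against control and the interaction and 3 for heavy against light, the same counts as with it, and the pairing changed no member's call. Without that block, the share of all genes called was 0.478% for OE against control over both pools and 22.2% for heavy against light. With it, the shares were 4.37% and 28.6%. Heavy against light gave 4 members with upper-quartile scaling, where 29.5% of all genes passed, and with DESeq2, where 32.8% did.

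Apart from leaving out libraries, 5 fold changes reversed, each near 0: RUNX1 over both pools (0.084) and CEBPA (-0.090) and GFI1 (-0.014) between lines with the gradients summed, GFI1 in the heavy pool without a filter (-0.063), and CEBPB for heavy against light with upper-quartile scaling (-0.015). The other 425 values kept their direction, 6 of them passing the threshold newly. With a library left out, 54 values reversed, with these ranges. Over both pools (OE against control) they were CEBPD -0.20 to 0.56, GFI1 -0.12 to 0.22, RUNX1 -0.31 to 0.18 and SPI1 -0.61 to 0.30. In the heavy pool they were GFI1 -0.36 to 0.36, IRF8 -0.21 to 0.14 and MYB -0.34 to 0.14. In the light pool they were CEBPA -0.22 to 0.87, CEBPB -0.27 to 1.07, CEBPD -1.14 to 0.37, GFI1 -0.029 to 0.20, RUNX1 -0.35 to 0.58 and SPI1 -1.54 to 0.28. For heavy against light it was CEBPB, -0.081 to 0.58. For the interaction they were CEBPA -0.33 to 0.75, CEBPB -0.48 to 0.94, CEBPE -0.25 to 1.25, GATA2 -0.17 to 1.17, GFI1 -0.48 to 0.29 and RUNX1 -0.80 to 0.13. For Molm13 against U937 they were CEBPA -0.21 to 0.22, CEBPB -0.023 to 0.62, CEBPD -0.010 to 0.56, CEBPE -0.49 to 0.19, GFI1 -0.15 to 0.17 and SPI1 -0.029 to 0.70. The causes were not tested.

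Upper-quartile scaling moved the median of all genes for heavy against light to -0.22, against -0.037 with TMM, and gave 2846 genes higher and 4319 lower in place of 3833 and 3104. Over both pools it gave 752 higher and 481 lower for OE against control in place of 487 and 574, and DESeq2 called 2679 genes in place of 1061. The design has n = 2 per group, 1 gradient per line and genotype, and a Molm13 control light library that differs from the other light pools. In the simulated counts, with few genes changed, most 2-fold changes were missed. Between pools many more genes passed in the data, so that share need not hold there. Low-count CEBPE carries the widest counting error.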
